A study of Rattus norvegicus with 99 samples.

Results

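The 5 genes of the rat heart described here are Ankrd1, Ankrd2, Ankrd23, Csrp3 and Tcap, whose proteins bind titin or sit beside it where the sarcomere senses stretch. They were chosen by their symbols, with earlier results of these data known. All 5 were found among the 17337 genes of the whole-heart table. Ankrd23 varied most, from 15.9 to 957 CPM (reads counted for a gene, scaled by library size with TMM factors) over the 99 libraries, and was highest in the septum and left ventricle (LV) of failing hearts after aortic banding. Ankrd2 was scarce but rose 4.08-fold in the failing LV, where it passed the adjusted threshold with the design used here, a call that was lost on leaving out any of 5 of the 7 animals. No other member passed in any comparison with that design, though Ankrd23 and others did under some alternatives. Ankrd1 and Csrp3 differed less between groups, and Tcap least.

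Titin is the giant protein that spans the sarcomere from the Z-disc to the M-line and gives muscle much of its passive stiffness. Ankrd1 (also named CARP), Ankrd2 and Ankrd23 (also named DARP) make up the muscle ankyrin repeat proteins, which bind the N2A segment of titin in the I-band and can also be found in the nucleus. Csrp3 encodes muscle LIM protein, a Z-disc protein of cardiomyocytes that is also found in the nucleus. Tcap encodes telethonin, which caps the amino-terminal end of titin at the Z-disc. Ankrd1 is a long-known marker of cardiac stress, and Ankrd2 is best known from skeletal muscle.

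The animals were 33 male rats, F1 offspring of Wistar Kyoto females and Lewis males, and each gave a library of polyadenylated RNA from LV, septum (Spt) and right ventricle (RV). A clip that did not constrict when placed was put around the pulmonary artery (PAB) or the aorta (AOB), so the load grew with the animal, and sham animals were operated without banding. At the stage of compensatory hypertrophy (H) the groups Sham-H, AOB-H and PAB-H held 7 animals each, aged 11 weeks and killed 7 weeks after surgery. At the stage of heart failure (F) there were 3 PAB-F and 2 Sham-RF animals, aged 27 weeks and 21 weeks after surgery, and 4 AOB-F and 3 Sham-LF animals, aged 30 weeks and 24 weeks after surgery. Ages are as in the sample labels, and the study's text gives others. The samples are pieces of whole tissue, so fewer cells of a type and less RNA per cell cannot be told apart. Older shams number 2 or 3, which limits every failure-stage comparison.

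Total counts ran from 12.1 to 24.2 M per library, with a median of 17.4 M. A set of 50 genes that separated RV from LV in the other animals ran the usual way in 30 of 33 animals. As a score, their mean log2 difference of RV from LV, signed by the usual direction, was divided by its median in the other animals. The score was 0.255 to 1.60 in these 30 animals. The set ran the opposite way in 3 animals, Sham-H replicate 6, PAB-H replicate 2 and AOB-H replicate 1, with scores of -1.34 to -1.05. No member was among those genes for any animal. Whether LV and RV of these 3 animals were exchanged was not tested. Some compensated-stage values that these animals touch, among them several of Ankrd23, are also given without them, and the others only with them. The libraries also carry numbers in the labels that fall into 3 runs, called library series 1, 2 and 3, and every failure-stage library of a chamber lies in 1 series.

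Upstream sequences of Ankrd2 and Ankrd23, the 2 members found in the promoter table used here, are shown so that elements close to the gene start can be read beside their values. The letters are from RefSeq on build GRCr8, upstream of the annotated start and 5′ to 3′ on the gene's own strand. The Ankrd2 sequence is the + strand of chr1:250796169-250796418, and the Ankrd23 sequence is the - strand of chr9:46274579-46274760. In Ankrd2 the capitals mark a TATA box. In Ankrd23 they mark an MCAT element, the kind of site that TEAD factors bind.
Ankrd2: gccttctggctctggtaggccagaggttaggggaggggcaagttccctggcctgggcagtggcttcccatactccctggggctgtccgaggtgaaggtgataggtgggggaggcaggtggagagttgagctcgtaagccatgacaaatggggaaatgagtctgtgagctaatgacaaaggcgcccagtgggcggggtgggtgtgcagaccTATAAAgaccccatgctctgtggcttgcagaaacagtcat
Ankrd23: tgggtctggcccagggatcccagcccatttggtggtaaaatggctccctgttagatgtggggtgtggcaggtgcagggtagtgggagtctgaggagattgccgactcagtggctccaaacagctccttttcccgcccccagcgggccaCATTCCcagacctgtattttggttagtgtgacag
The TATAAA of Ankrd2 lies 40 to 35 bases before the start, and 12.9% of promoters of that length hold TATAAA on either strand. The CATTCC of Ankrd23 lies 34 to 29 bases before the start, and 8.91% of promoters cut to their first 182 bases hold it on either strand. That cut keeps the bases farthest upstream, so it may end short of the start. Each sequence also holds 2 E-boxes (CANNTG). At least 1 E-box is held by 65.5% of promoters of 250 bases and by 54.7% of those cut to 182 bases. The GATA site searched, AGATAA, had no match in either window on either strand, and 10.3% of promoters of 250 bases hold it. The CArG box (held by 1.50%) and the MEF2 site (held by 0.523%) had no match either. Such matches describe letters and show no binding. Ankrd1, Csrp3 and Tcap are named without sequence.

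In the table the members carry the NCBI identifiers 27064 (Ankrd1), 309374 (Ankrd2), 316330 (Ankrd23), 117505 (Csrp3) and 688173 (Tcap). Levels of different genes were compared per length, as the FPKM deposited. Ankrd1 had a mean of 5008 FPKM over the 99 libraries, the 14th highest of all genes, Tcap 2990 FPKM (30th) and Csrp3 2192 FPKM (48th). Ankrd23 had 57.5 FPKM and ranked 1504th, and Ankrd2 had 0.982 FPKM and ranked 10030th. Ankrd1, Tcap and Csrp3 were thus among the most abundant messages of the heart, while Ankrd2 was read 2 to 102 times per library with a median of 13 counts. Between the lowest and highest of the 21 group means, Ankrd23 differed 26.4-fold, Ankrd2 6.41-fold, Ankrd1 2.86-fold, Csrp3 1.75-fold and Tcap 1.41-fold. AOB-F Spt held the highest group mean of Ankrd1, Ankrd23 and Csrp3, AOB-F LV that of Ankrd2, and Sham-LF RV that of Tcap.

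Ankrd23, the muscle ankyrin repeat protein with the widest range, was higher in the failing LV of AOB-F than in Sham-LF. Its level was 118, 101 and 77.9 CPM in the LV of Sham-LF replicates 1 to 3, and 916, 387, 196 and 774 CPM in AOB-F replicates 1 to 4. All 4 banded animals lay above the highest sham, yet they differed among themselves, with replicate 3 lowest and replicate 1 highest. The fold change was 5.74 (log2 2.52 ± 0.64, SE, unadjusted p = 0.000469), and the adjusted p of 0.0528 from edgeR's quasi-likelihood test, the test used for all p-values here, missed the threshold of 0.05. Leaving out the 3 animals of opposite chamber difference, none of which is in these groups, gave an edgeR adjusted p of 0.0453 at log2 2.52. On leaving out 1 animal the value ran from log2 2.20 to 2.80 and the edgeR adjusted p from 0.00901 to 0.291. It passed without AOB-F replicate 3, the lowest (0.00901), or replicate 2 (0.0334), and did not pass without replicate 1 (0.291), replicate 4 (0.238) or any of the 3 shams (0.179 to 0.231).

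In the septum, which belongs to both ventricles, Ankrd23 was at 125, 118 and 165 CPM in Sham-LF and at 957, 503, 771 and 354 CPM in AOB-F. No library of AOB-F overlapped the shams (log2 fold change 2.23 ± 0.57, unadjusted p = 0.000466, edgeR adjusted p = 0.0840), and on leaving out 1 animal the value ran from 1.99 to 2.45. The edgeR adjusted p then passed only without replicate 4, the lowest, at 0.0238, and was 0.0546 to 0.383 without any other animal. In the RV, the ventricle not loaded directly by the aortic clip, Sham-LF had 17.2, 30.6 and 26.9 CPM and AOB-F 451, 33.3, 35.8 and 429.6 CPM. The animals fell apart there: replicates 1 and 4, the highest of the LV, were high, and replicates 2 and 3 lay just above the shams. The difference was log2 3.25 ± 1.04 (unadjusted p = 0.00405, edgeR adjusted p = 0.328), and the response in LV was not distinguishable from that in RV, with a difference of -0.73 ± 1.04 on the log2 scale.

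**Figure D1:**
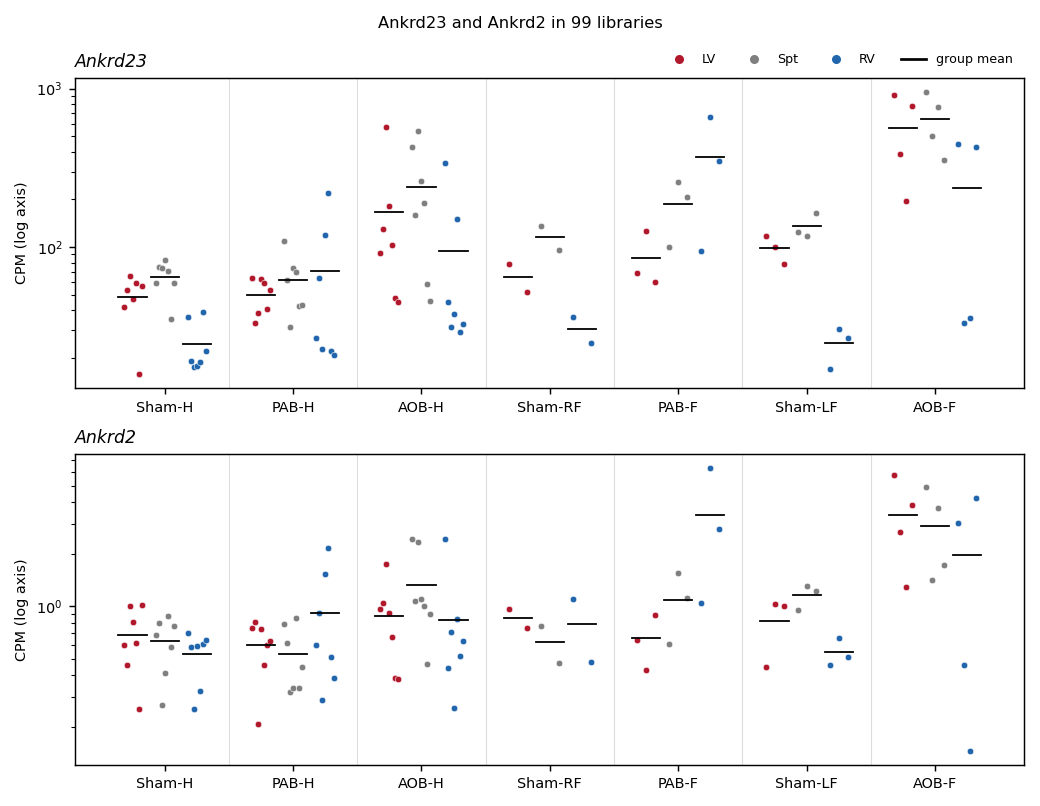
Level of Ankrd23 (upper panel) and Ankrd2 (lower panel) in the 99 libraries, in CPM on a log axis, by condition along the horizontal axis, with LV, Spt and RV in red, grey and blue. Each point is 1 animal and each black line a group mean. In AOB-F all 4 Ankrd23 points of LV and Spt lie above those of Sham-LF, while in RV 2 points are far above and 2 just above them.

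Banding of the pulmonary artery gave high Ankrd23 in the loaded RV. Sham-RF had 36.3 and 24.8 CPM in RV, and PAB-F had 95.3, 664 and 349 CPM. The 3 animals with PAB-F all lay above both shams (log2 fold change 3.59 ± 1.28, unadjusted p = 0.00898, edgeR adjusted p = 0.524), with a spread of nearly an order of magnitude among themselves. Leaving out PAB-F replicate 2, the highest, moved the value to log2 2.87.

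The LV of the same animals differed little in Ankrd23: Sham-RF had 78.3 and 52.4 CPM and PAB-F 68.9, 127 and 60.7 CPM, with overlap (log2 0.39 ± 0.71). In Spt, Sham-RF had 135 and 96.1 CPM and PAB-F 101, 258 and 207 CPM, again with overlap (log2 0.71 ± 0.65). The excess of the RV response over the LV response was 3.21 ± 1.27 on the log2 scale (unadjusted p = 0.0137, edgeR adjusted p = 0.988). The fit behind this and the other differences between LV and RV responses does not pair the chambers of an animal.

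At the compensated stage, Ankrd23 was raised in part of the AOB-H animals. In the LV of Sham-H it ranged from 15.9 to 66.3 CPM with a median of 53.7, and in AOB-H from 45.5 to 570 CPM with a median of 104. In all, 5 of 7 AOB-H libraries lay above every sham and 2 within their range (log2 1.78 ± 0.43, unadjusted p = 0.000235, edgeR adjusted p = 0.709), and without the 3 animals of opposite chamber difference the value was 1.73 (edgeR adjusted p = 0.640). In Spt, Sham-H ranged from 35.4 to 82.5 CPM (median 70.3) and AOB-H from 45.8 to 538 CPM (median 189), with 5 of 7 above every sham (log2 1.88 ± 0.38, unadjusted p = 2.89e-05, edgeR adjusted p = 0.153). Both AOB-H libraries of Spt that lay within the sham range, replicates 6 and 7, belong to library series 3. So do replicates 2, 3 and 4, which lay above every sham at 160, 538 and 261 CPM. On leaving out 1 animal the Spt value ran from log2 1.55 to 2.07 and the edgeR adjusted p from 0.00886 to 0.417, passing the threshold without replicate 6 or 7 only. Without the 3 animals of opposite chamber difference it was 1.58 with an edgeR adjusted p of 0.354.

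In RV, AOB-H Ankrd23 ranged from 29.4 to 338 CPM (median 37.9) against 17.6 to 39.2 CPM (median 19.2) in Sham-H, with 3 of 7 above every sham (log2 1.97 ± 0.67, edgeR adjusted p = 1.00). Replicate 1, 1 of the 3 animals of opposite chamber difference, was the highest, and without those animals the value was 1.31 (unadjusted p = 0.0593 in edgeR). PAB-H RV ranged from 20.9 to 221 CPM (median 26.8), again with 3 of 7 above every sham (log2 1.54 ± 0.66, unadjusted p = 0.0269, edgeR adjusted p = 1.00). Without the same animals it was 1.71 (unadjusted p = 0.0168 in edgeR). In the LV of PAB-H, Ankrd23 was at 50.2 CPM ± 12.5 (SD, n = 7) against 48.8 ± 16.6 (SD, n = 7) in Sham-H.

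Within each library series, the Ankrd23 values of the compensated stage were uneven. In AOB-H LV the log2 fold changes were 1.24, 2.31 and 0.35 in series 1, 2 and 3. For AOB-H RV they were 2.78, 2.02 and 0.03, and for PAB-H RV 0.71, 2.74 and -0.52. Series 3, with 2 animals per group in LV and RV, thus gave values near 0 or below in RV. In both ventricles series 3 holds Sham-H replicate 6, and series 1 holds AOB-H replicate 1 and PAB-H replicate 2. These are the 3 animals of opposite chamber difference, and the values within a series include them. In Spt the values for AOB-H were 2.24 in series 2 and 1.72 in series 3. The failure-stage values within 1 series were 2.53 in AOB-F LV, 2.24 in AOB-F Spt, 3.24 in AOB-F RV and 3.59 in PAB-F RV.

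Ankrd2, the ankyrin repeat protein best known from skeletal muscle, rose in the failing LV of AOB-F. It was read at 0.445, 1.04 and 1.00 CPM in Sham-LF LV, from 8, 15 and 17 counts, and at 5.74, 2.68, 1.30 and 3.85 CPM in AOB-F LV, from 75, 44, 21 and 56 counts. All 4 AOB-F libraries exceeded the shams, replicate 3 by little, and replicates 1 and 4 were highest as for Ankrd23. The log2 fold change was 2.03 ± 0.49 (4.08-fold, unadjusted p = 0.00026, edgeR adjusted p = 0.0406). This call was lost on leaving out any of the 3 shams or AOB-F replicate 1 or 4, with adjusted p between 0.157 and 0.291, and in a fit of these groups alone, where it was 0.344.

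In Spt, Ankrd2 was at 0.955, 1.32 and 1.23 CPM in Sham-LF and at 4.88, 1.42, 3.69 and 1.74 CPM in AOB-F, with no overlap (log2 1.29 ± 0.45, unadjusted p = 0.00757, edgeR adjusted p = 0.194). In the RV of AOB-F it was split like Ankrd23: Sham-LF had 0.458, 0.657 and 0.514 CPM, and AOB-F had 3.04, 0.458, 0.147 and 4.24 CPM. Replicates 1 and 4 were above all shams and replicate 3, with 2 counts, was below them (log2 1.85 ± 0.84, unadjusted p = 0.0356, edgeR adjusted p = 0.367). Counts this low carry a large counting error.

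Loading of the RV by PAB gave 1.05, 6.28 and 2.82 CPM of Ankrd2 in PAB-F RV against 1.10 and 0.479 CPM in Sham-RF. Replicate 1 overlapped the shams and replicate 2 stood highest of all 99 libraries (log2 2.11 ± 0.95, unadjusted p = 0.0337, edgeR adjusted p = 0.570). Without replicate 2 the value was 1.33. The LV of PAB-F, at 0.643, 0.428 and 0.895 CPM, overlapped the 0.964 and 0.749 CPM of Sham-RF, with replicates 1 and 2 below both shams and replicate 3 between them (log2 -0.40 ± 0.62). The difference of the RV response from the LV response was 2.52 ± 1.07 (unadjusted p = 0.0208, edgeR adjusted p = 0.988).

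Among AOB-H animals, Ankrd2 in Spt ranged from 0.468 to 2.46 CPM (median 1.07) against 0.269 to 0.878 CPM (median 0.688) in Sham-H, and 6 of 7 lay above every sham (log2 1.09 ± 0.35, unadjusted p = 0.00366, edgeR adjusted p = 0.222). Without the 3 animals of opposite chamber difference the value was 0.87 (edgeR adjusted p = 0.357). In LV the AOB-H mean was 0.878 CPM ± 0.477 (SD, n = 7) against 0.682 ± 0.284 (SD, n = 7) in Sham-H. The AOB response in LV was larger at failure than at the compensated stage by 1.68 ± 0.60 on the log2 scale for Ankrd2 (unadjusted p = 0.00945, edgeR adjusted p = 0.527), against 0.74 ± 0.72 for Ankrd23. In RV under PAB the same differences between stages were 1.33 ± 1.10 for Ankrd2 and 2.05 ± 1.33 for Ankrd23.

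**Figure D2:**
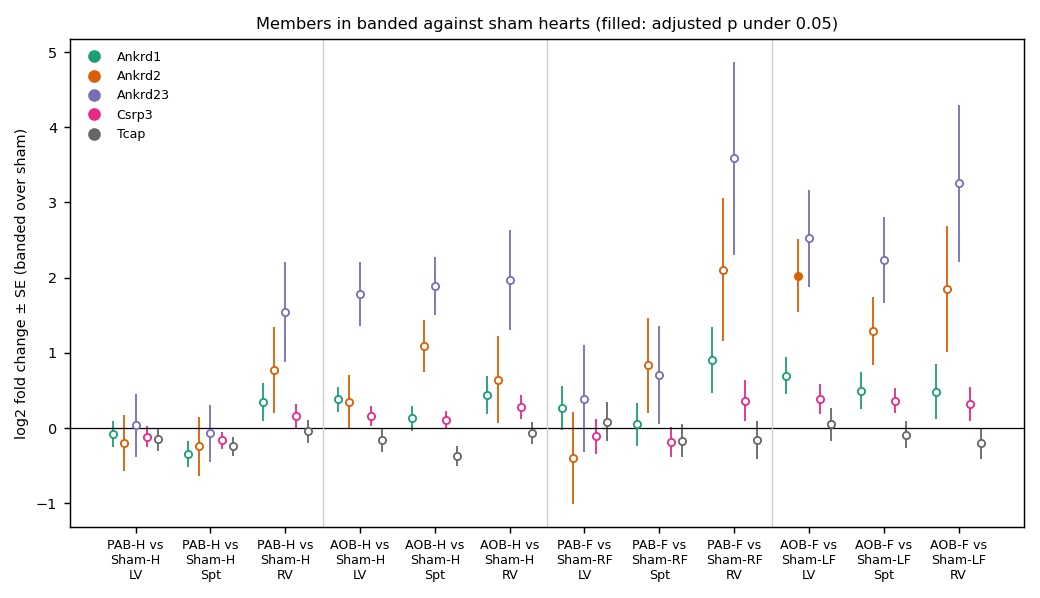
Log2 fold change (vertical axis) of each member, by colour, in each banding group against its own sham and in each chamber, with bars of 1 standard error from the edgeR fit and the point filled where the adjusted p is under 0.05. Ankrd23 and Ankrd2 lie highest in the 3 chambers of AOB-F and in PAB-F RV, and the filled point is Ankrd2 in AOB-F LV.

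Ankrd1, the founding member of the family and the most abundant of the 5, was higher in failing chambers by less than 2-fold. In LV it was at 9017, 10887 and 8110 CPM in Sham-LF and at 16153, 13648, 10980 and 19670 CPM in AOB-F, without overlap, replicate 3 only just above the highest sham. The log2 fold change was 0.69 ± 0.25 (1.62-fold, unadjusted p = 0.00861, edgeR adjusted p = 0.177). In Spt, Sham-LF had 12271, 14820 and 8623 CPM and AOB-F 22941, 13809, 17308 and 13933 CPM, with replicates 2 and 4 inside the sham range (log2 0.50 ± 0.24, unadjusted p = 0.0479). The RV of AOB-F held 15654, 7470, 7696 and 19037 CPM against 9381, 10203 and 7204 CPM, so that replicates 1 and 4 were high here too (log2 0.48 ± 0.37).

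In PAB-F RV, Ankrd1 was at 9543, 16912 and 12351 CPM against 7706 and 6039 CPM in Sham-RF, all 3 above both shams (log2 0.91 ± 0.44, unadjusted p = 0.0509, edgeR adjusted p = 0.592). The group means in LV were 9382 CPM ± 678 (SD, n = 3) in PAB-F and 7842 ± 1329 (SD, n = 2) in Sham-RF. At the compensated stage Ankrd1 was at 8637 CPM ± 2592 (SD, n = 7) in AOB-H LV and 6644 ± 858 (SD, n = 7) in Sham-H LV, with 4 of 7 above every sham (log2 0.38 ± 0.17, unadjusted p = 0.0331, edgeR adjusted p = 0.956). Without the 3 animals of opposite chamber difference it was log2 0.27, with an unadjusted p of 0.143 in edgeR. PAB-H Spt had 5949 CPM ± 1020.5 (SD, n = 7) against 7557 ± 1941 (SD, n = 7), lower by log2 -0.35 ± 0.17 (unadjusted p = 0.0477, edgeR adjusted p = 0.790).

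Csrp3, the Z-disc LIM protein, followed Ankrd1 with smaller differences. In LV it was at 1789, 2162 and 1682 CPM in Sham-LF and at 2752, 2364, 1898 and 2800 CPM in AOB-F, with replicate 3 inside the sham range (log2 0.38 ± 0.20, unadjusted p = 0.0607). In Spt, Sham-LF had 2052, 2018 and 1998 CPM and AOB-F 3004, 2435, 2801 and 2300 CPM without overlap (log2 0.36 ± 0.16, unadjusted p = 0.0346, edgeR adjusted p = 0.356). For the RV of AOB-F it was 2637, 1725, 1672 and 2753 CPM against 1910, 1814 and 1569 CPM. Replicates 1 and 4 were again the high ones (log2 0.32 ± 0.23).

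PAB-F RV held 1992, 2899 and 2280 CPM of Csrp3 against 1882 and 1814 CPM in Sham-RF, all above both shams (log2 0.37 ± 0.27). In the Spt of the same animals it was 1830, 2381 and 2127 CPM against 2452 and 2358 CPM (log2 -0.18 ± 0.19), so the animals were not high in every chamber. The RV response exceeded that of the LV by 0.48 ± 0.34 (unadjusted p = 0.16).

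Tcap, the titin cap protein, differed least. In LV it was at 2406, 3118 and 2077 CPM in Sham-LF and at 2429, 3001, 2270 and 2826 CPM in AOB-F, which overlapped fully (log2 0.05 ± 0.22). The values in PAB-F RV were 3043, 2922 and 2200 CPM against 3052 and 2983 CPM (log2 -0.15 ± 0.25), with replicate 3 lowest. At failure in AOB the log2 differences were -0.09 ± 0.18 in Spt and -0.21 ± 0.21 in RV. The lowest value was in AOB-H Spt, 2383 CPM ± 309 (SD, n = 7) against 3094 ± 914 (SD, n = 7) in Sham-H, with 4 of 7 below every sham (log2 -0.37 ± 0.13, unadjusted p = 0.00704, edgeR adjusted p = 0.235).

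**Figure D3:**
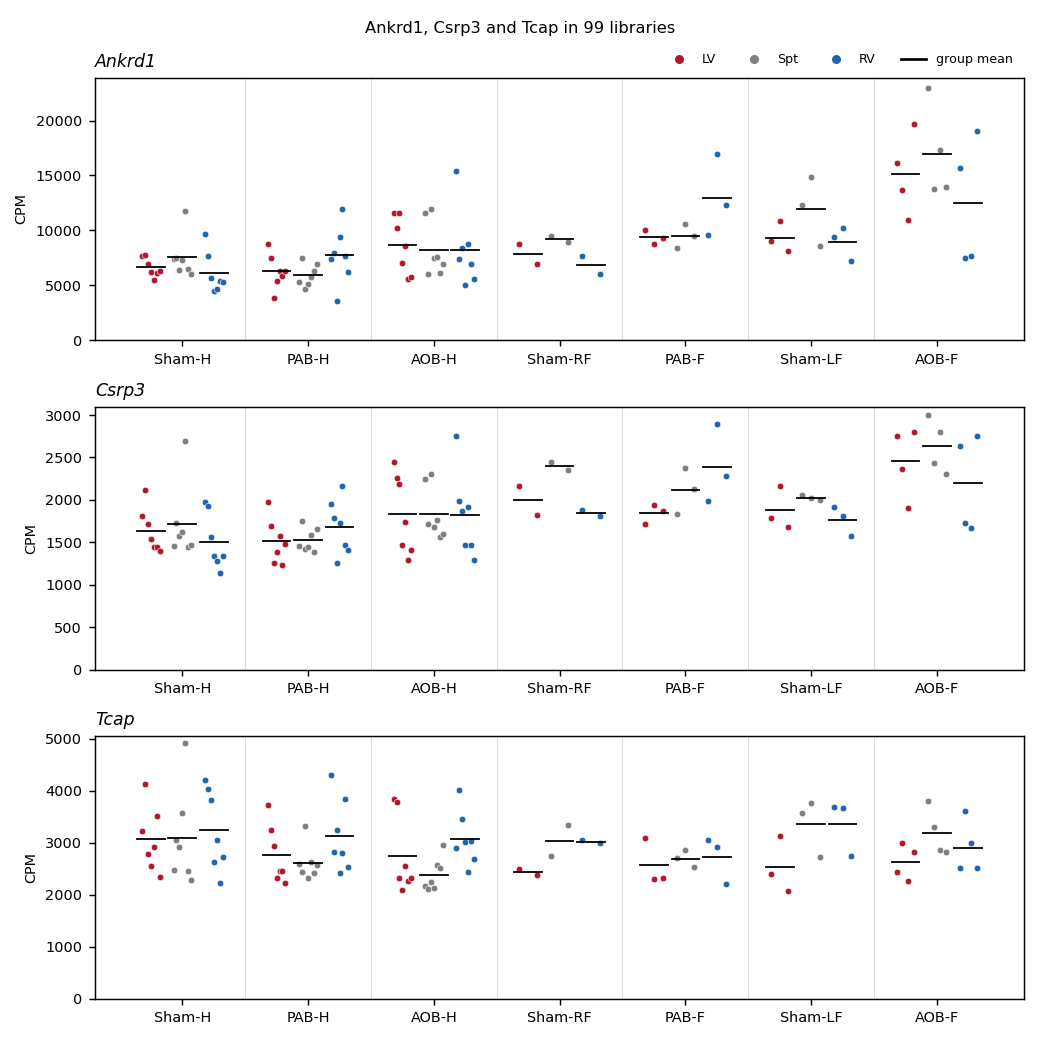
Level of Ankrd1, Csrp3 and Tcap (1 panel each) in the 99 libraries, in CPM on linear axes from 0, by condition along the horizontal axis and with LV, Spt and RV in red, grey and blue. Each point is 1 animal and each black line a group mean. Ankrd1 reaches 22941 CPM in AOB-F Spt, while the Tcap points of banded and sham animals overlap in every chamber.

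Adjusted calls were few over the whole table. The members were chosen with earlier results of these data known, so their counts are no test against the share of all genes. In AOB-F LV, 0.837% of 11703 genes passed an adjusted p of 0.05 in either direction, and 1 of the 5 members did. In AOB-F Spt, 0.232% of 11624 genes and none of the members passed. Between older and young shams 0.0171% passed in LV, 0.103% in Spt and 0.0852% in RV, and between chambers of Sham-H 0.0923% for Spt against LV and 0.772% for Spt against RV, with no member in any of them. In the other 15 comparisons 0% of genes passed in edgeR. In these 15, 110 to 1851 genes had an unadjusted p under 0.05, and DESeq2 called 0 to 3 genes. With no gene called, a member could not be called either.

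At an unadjusted p under 0.05, the members higher in the banded group were 3 in AOB-F LV (7.03% of all genes), 4 in AOB-F Spt (5.71%), 2 in AOB-F RV (6.91%) and 2 in PAB-F RV (4.00%). At the compensated stage they were 2 in AOB-H LV (2.20%), 2 in AOB-H Spt (5.65%), 1 in AOB-H RV (0.597%) and 1 in PAB-H RV (0.426%). Without the 3 animals of opposite chamber difference they were 1 in AOB-H LV (Ankrd23), 2 in AOB-H Spt, 0 in AOB-H RV and 1 in PAB-H RV. The share of all genes in those fits is not given here. Members lower were Tcap in AOB-H Spt, where 10.3% of all genes were lower, and Ankrd1 in PAB-H Spt, where 3.36% were. None was lower in AOB-F LV (5.67% of all genes) or PAB-F RV (4.37%). For the differences between responses, 1 member passed in the AOB stage comparison of LV (4.83%) and 2 in the PAB-F comparison of RV with LV (2.39%). Groups that did not overlap, with the banded one higher, were found for 3 members in AOB-F LV (5.91% of all genes), 3 in AOB-F Spt (5.26%), 1 in AOB-F RV (5.33%) and 3 in PAB-F RV (16.9%).

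Shams showed how the members lie in hearts without a band. In Sham-H, Ankrd23 was at 48.8 CPM ± 16.6 in LV, 65.1 ± 15.5 in Spt and 24.4 ± 9.25 in RV (SD, n = 7 each). Spt exceeded RV by log2 1.41 ± 0.53 (unadjusted p = 0.00908, edgeR adjusted p = 0.292), the one member past an unadjusted p of 0.05 in that comparison, where 3.47% of all genes were higher. RV lay below LV by log2 -0.99 ± 0.52 (unadjusted p = 0.0618, edgeR adjusted p = 0.819), and by -1.30 (unadjusted p = 0.0203) without the 3 animals of opposite chamber difference, where Spt exceeded RV by 1.67 (edgeR adjusted p = 0.102). Spt exceeded LV by 0.42 ± 0.52. The order of the means was thus Spt, LV, RV. This fit does not pair the chambers of an animal, and within animals Spt was above LV in 7 of 7 Sham-H. With the animal as a block the difference of Spt from LV was 0.43 ± 0.41, with an unadjusted p of 0.296 in edgeR.

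Within animals, the Ankrd23 level of RV was below that of LV in 11 of 12 shams, and the exception was Sham-H replicate 6, with an RV-to-LV ratio of 2.46. This animal is 1 of the 3 of opposite chamber difference. The ratio was below 1 in 4 of 4 AOB-F animals and in 0 of 3 PAB-F animals, whose ratios were 1.38, 5.23 and 5.75. Among AOB-H it was below 1 in 5 of 7 animals and among PAB-H in 4 of 7. Without the 3 animals of opposite chamber difference it was below 1 in 11 of 11 shams, 5 of 6 AOB-H and 4 of 6 PAB-H animals. Spt was above LV in 12 of 12 shams. In PAB-F, RV exceeded LV in 3 of 3 animals also for Ankrd2, with ratios of 1.63 to 14.7, and for Csrp3, with ratios of 1.16 to 1.49, and in 2 of 3 for Ankrd1. For Tcap, RV exceeded LV in 1 of 3 PAB-F animals and in 10 of 12 shams.

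**Figure D4:**
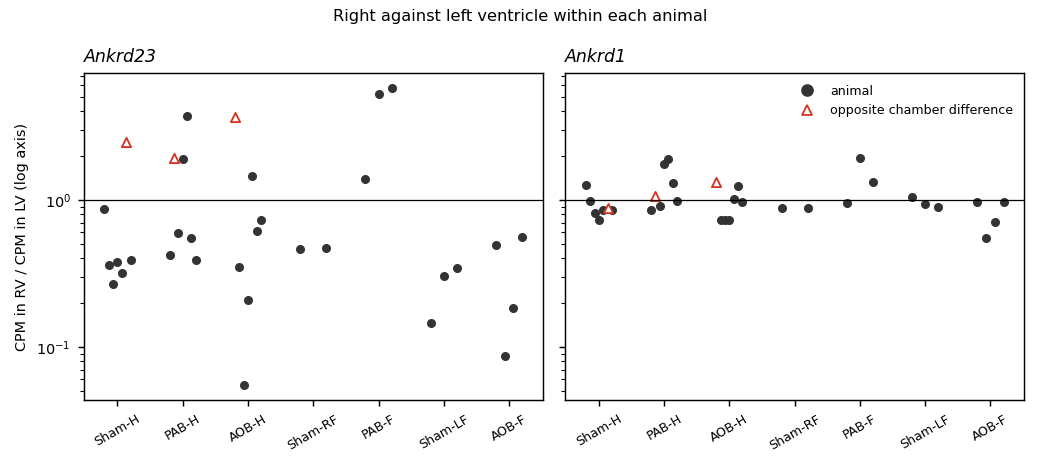
Level in RV divided by the level in LV of the same animal for Ankrd23 (left) and Ankrd1 (right), on a log axis, by condition. Each point is 1 animal, open red triangles are the 3 animals of opposite chamber difference, and the line marks a ratio of 1. For Ankrd23 the 3 PAB-F animals lie above the line and 11 of the 12 shams below it, while the Ankrd1 ratios run from 0.547 to 1.94.

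Older shams had more Ankrd23 in Spt than young ones. The 5 older shams, at 135 and 96.1 CPM in Sham-RF and 125, 118 and 165 CPM in Sham-LF, all lay above the highest Sham-H animal at 82.5 CPM (log2 0.94 ± 0.41, unadjusted p = 0.0289, edgeR adjusted p = 0.246). Without the 3 animals of opposite chamber difference, 1 of them in Sham-H, it was log2 0.84 with an unadjusted p of 0.0566 in edgeR. In all, 3 members passed an unadjusted p of 0.05 in this comparison, where 7.75% of all genes were higher, and 1 of them, Ankrd23, did not overlap, as did 0.697% of all genes. The others were Ankrd1 (log2 0.47 ± 0.18, unadjusted p = 0.0169, edgeR adjusted p = 0.211) and Csrp3 (log2 0.36 ± 0.13, unadjusted p = 0.00729, edgeR adjusted p = 0.161). Without Sham-H replicate 5, the highest young animal for both genes, the adjusted p from edgeR was 0.0412 for Ankrd1 (log2 0.61) and 0.00564 for Csrp3 (log2 0.51), and without any other single animal neither passed. In LV the differences with age were 0.71 ± 0.46 for Ankrd23 and 0.36 ± 0.19 for Ankrd1. Both older groups of a chamber lie in 1 library series, which also holds part of the Sham-H libraries. Within that series the differences in Spt were log2 0.94 for Ankrd23, 0.63 for Ankrd1 and 0.49 for Csrp3. In LV they were 0.47 for Ankrd23 and 0.46 for Ankrd1. Older shams differ from Sham-H in age, in time since surgery and in age at surgery, so these cannot be told apart.

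Across the 99 libraries, after the mean of chamber and library series was subtracted, the levels of 4 of the 5 members ran together. Pearson's r of log2 CPM was 0.922 for Ankrd1 with Csrp3, 0.871 for Ankrd2 with Ankrd23, 0.815 for Ankrd1 with Ankrd2 and 0.805 for Ankrd1 with Ankrd23. Tcap stood apart, with r between -0.258 and 0.162 with the others. Each animal gave 3 libraries and the same conditions enter every pair, so these values describe the libraries and carry no p. Among 10426 genes with a mean of at least 1 CPM, the most like Ankrd1 were Csrp3, Tnfrsf12a (0.885) and Rnd1 (0.883), and Ankrd1 was in turn the gene most like Csrp3, followed by Hspb3 (0.878) and Fbxl22 (0.871). Nearest to Ankrd23 were Tceal7 (0.967), Sypl2 (0.947) and Akip1 (0.939), and nearest to Ankrd2 were Akip1 (0.901), Tgfb2 (0.893) and Prss23 (0.879), with Ankrd23 in 4th place. For Tcap they were Cir1 (0.849), Pcp4l1 (0.831) and Uimc1 (0.824). Genes known from stressed myocardium also ran with Ankrd23, with r of 0.886 for Acta1 (skeletal actin), 0.844 for Nppb and 0.783 for Nppa (natriuretic peptides) and 0.803 for Myh7 (the slow myosin heavy chain).

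**Figure D5:**
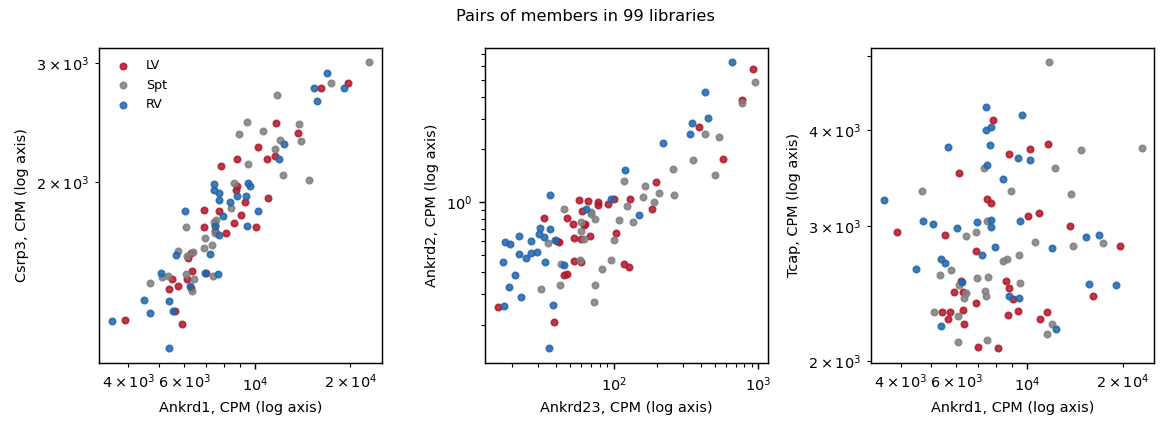
Level of Csrp3 against Ankrd1, Ankrd2 against Ankrd23 and Tcap against Ankrd1, in CPM on log axes, 1 point per library with LV, Spt and RV in red, grey and blue. Without subtraction of any mean, r of log2 CPM was 0.913 in the left panel, 0.845 in the middle and 0.146 in the right.

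Other genes of the same structures gave a mixed picture. The lists of these genes were also chosen with earlier results of these data known. Of 22 tested genes of the Z-disc and costamere, 2 rose in AOB-F LV at an adjusted p under 0.05 and 0 fell, and their median log2 fold change was 0.11 against 0.01 over all genes. They were Xirp2 (log2 1.74 ± 0.39, edgeR adjusted p = 0.0338), an actin-binding protein of intercalated discs, and Synpo2l (log2 1.20 ± 0.26, edgeR adjusted p = 0.0320), a Z-disc protein. Of 12 tested titin and I-band partners none passed the adjusted threshold, and Fhl1 (log2 0.47) and Fhl2 (log2 -0.44), both LIM proteins, had an unadjusted p under 0.05 in opposite directions. The median of these partners was 0.03. Titin itself was not analysed here.

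Csrp2, a relative of Csrp3, had a log2 fold change of 1.62 ± 0.43 in AOB-F LV (edgeR adjusted p = 0.0628). Of 8 targets of YAP and TEAD, the pair of proteins known to carry mechanical signals to the nucleus, 1 rose, Ctgf (log2 2.37 ± 0.50, edgeR adjusted p = 0.0320), and Amotl2 was at log2 -0.35 (unadjusted p = 0.0196). Their median was 0.18. All 4 hypertrophy stress genes had an unadjusted p under 0.05 and 1 rose past the adjusted threshold, Nppa (log2 3.73 ± 0.93, edgeR adjusted p = 0.0472). None of the 6 tested nuclear partners and regulators of the members had an unadjusted p under 0.05 there, with a median of 0.00.

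In PAB-F RV no listed gene passed an adjusted p of 0.05, as no gene of the table did. At an unadjusted p under 0.05, 3 of 22 Z-disc and costamere genes were higher, among them Xirp2 (log2 1.82 ± 0.66) and Flnc (log2 0.66 ± 0.29), which encodes filamin C, an actin cross-linker of the Z-disc. Of 12 titin and I-band partners 1 was higher, Hspb7 (log2 0.56 ± 0.23), a small heat shock protein of the heart. Of the 8 targets of YAP and TEAD, Ctgf was at log2 1.50 and Cyr61 at -1.21. Of the 4 hypertrophy stress genes 3 were higher, with Nppa at log2 6.23 ± 2.36 and Nppb at 2.99 ± 1.14. The list medians were 0.16, 0.07, 0.11 and 2.62, against 0.00 over all genes.

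Markers of other tissues were set beside the high members. The summed level of 4 atrial cardiomyocyte genes ranged from 19.7 to 538 CPM in AOB-F LV (highest in replicate 4) against 10.3 to 36.3 CPM in Sham-LF LV, and from 16.4 to 1855 CPM in PAB-F RV (highest in replicate 3) against 13.8 to 49.5 CPM in Sham-RF RV. All 4 genes had a higher mean in both comparisons, with a median log2 fold change of 2.60 in AOB-F LV and 4.97 in PAB-F RV. In edgeR 0 of 4 had an unadjusted p under 0.05 in either comparison. Apart from the highest library, the sums were 19.7, 29.4 and 43.3 CPM in AOB-F LV and 42.1 and 16.4 CPM in PAB-F RV, overlapping the shams. The part of these genes in the levels of the members was not tested. Without PAB-F replicate 3 the RV log2 fold changes were 3.64 for Ankrd23, 2.24 for Ankrd2 and 0.95 for Ankrd1. In AOB-F LV without replicate 4 they were 2.34 for Ankrd23 (edgeR adjusted p = 0.238) and 1.96 for Ankrd2 (edgeR adjusted p = 0.208). At the compensated stage the atrial sum had group medians of 8.38 to 140 CPM. It reached 1763 CPM in Sham-H LV replicate 6, an animal of opposite chamber difference. It also reached 1815 CPM in PAB-H RV replicate 1 and 1758 CPM in AOB-H RV replicate 3.

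The 8 skeletal muscle genes summed to 4.1 to 14.8 CPM over all failure-stage libraries, and in AOB-F LV to 5.4 to 12.5 CPM against 4.9 to 6.8 CPM in Sham-LF. At the compensated stage they reached 266 CPM in PAB-H LV replicate 4 and 93.2 CPM in Sham-H Spt replicate 2, and at most 15.6 CPM elsewhere. In PAB-F RV they summed to 7.0 to 8.2 CPM against 7.5 to 11.4 CPM, and Myh1, the gene of a fast myosin, was at 0 in all PAB-F RV libraries. Ventricular cardiomyocyte genes summed to 51393 to 67000 CPM in AOB-F LV against 68362 to 84322 CPM in Sham-LF LV, and 3 of 7 had an unadjusted p under 0.05 and lower level, among them Myh6 (log2 -1.02) and Tnni3 (log2 -0.54). Macrophage genes, 4 of 4 at an unadjusted p under 0.05 and higher, summed to 174 to 275 CPM against 131 to 183 CPM. Fibroblast genes, 3 of 6 higher, summed to 2885 to 3801 CPM against 2461 to 2703 CPM. The part of these shifts in the levels of the members was not tested.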

How the data were processed

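RNA of LV, Spt and RV from 33 rats was sequenced as 99 poly-A libraries. The authors used Trim Galore for trimming, STAR for mapping to Rnor6.0 (UCSC annotation) and featureCounts, without multiple overlaps, for counts per gene. Whether strand was used is not stated, so reads of overlapping genes on opposite strands may be missing from both. The deposited counts are whole numbers, and 2218 of 17337 genes had no count in any library. The deposited FPKM values were used for comparing genes. The authors' normalized counts were not used.

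From the counts, edgeR 4.0.16 (R 4.3.3) was run with TMM, filterByExpr and the quasi-likelihood test, 1 fit for the 33 libraries of a chamber and 1 for all 99, with 21 groups, for comparisons between chambers. The fit of all 99 libraries does not pair the chambers of an animal. Benjamini-Hochberg adjustment was over all genes tested, with a threshold of 0.05. DESeq2 1.42.0 was an alternative. The scripts were tested on simulated data. Replicates are separate animals. The tissue label of the RV samples reads left ventricle, and title and source were followed. For Sham-LF replicate 1, the description names a column of RV counts with the Sham-RF group instead. Title and age decided its group, and the column of counts used carries the Sham-LF group in its name, as the title does. Every comparison with Sham-LF RV rests on this. The study's sheet of samples swaps Spt replicates 1 and 2 of AOB-F against the labels used here, which bears on Spt ratios within these animals only. The text names all 5 members, the 3 genes most like each, and the largest 2 rises and falls of each list. Members and lists were chosen with earlier results of these data known.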

Additional observations from a re-analysis of the deposited data

Results flagged for a closer look

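In groups of 4 to 10 animals, a highest or lowest library far from the rest was found in 7 of 60 groups of member and chamber. The rule gives about 1 in 20 by chance only for normally distributed values in independent groups. Here CPM was not logged, and the groups share animals, so 1 in 20 is no fair measure. Each library found was the highest of its group. In AOB-H RV, replicate 1 stood above the others for Ankrd1 (15364 CPM, next 8778), Ankrd2 (2.46 CPM, next 0.846) and Ankrd23 (338 CPM, next 151), and this animal is 1 of the 3 with an opposite difference between LV and RV. In AOB-H LV, replicate 3 had 570 CPM of Ankrd23, and the next animal had 183. Sham-H replicate 5 stood above the others in Spt for Ankrd1 (11769 CPM, next 7509) and Csrp3 (2690 CPM, next 1732). Tcap was at 3329 CPM in PAB-H Spt replicate 3, and the next was at 2632.

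For Csrp3, all PAB-F animals lay below the mean of Sham-RF in LV and Spt and above it in RV. The RV response exceeded that of LV by 0.48 ± 0.34 on the log2 scale, with an unadjusted p of 0.16 in edgeR.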

How the results depend on the processing

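Of 22 comparisons, 16 gave the same number of members called in every alternative, and of 50 fold changes followed, 45 kept their sign. Of their 894 alternative values, 15 passed the adjusted threshold where the reported one had not and 9 no longer did. In AOB-F LV, where 1 member was called, the members called were 2 by DESeq2 and 2 without the 3 animals of opposite chamber difference (Ankrd2 and Ankrd23), 3 with the library series as a covariate (Ankrd1 also), and 0 within library series 2, in 1 fit of all 99 libraries and in a fit of only the groups compared. Over all genes, the 98 calls became 255 by DESeq2, 366 with the covariate, 0 with only the groups compared and 0 within series 2. Leaving out 1 animal gave 0 to 2 members and 0 to 636 genes. It gave 2 members without AOB-F replicate 2 or 3, and 0 without any other animal. In AOB-F Spt, where no member was called, DESeq2 called 1, Ankrd23, and leaving out 1 animal 0 to 1 (Ankrd23, without AOB-F replicate 4). In AOB-H Spt, DESeq2 called 1, Ankrd23, and leaving out 1 animal gave 0 to 1 (Ankrd23, without AOB-H replicate 6 or 7). In older against young shams, 1 member (Csrp3) was called in Spt within series 3, and leaving out 1 animal gave 0 to 2 in Spt (Ankrd1 and Csrp3, without Sham-H replicate 5). For Sham-H Spt against RV the covariate gave 1 (Csrp3). For comparisons other than AOB-F LV, the number of all genes called in each alternative is not given here. Those member counts therefore stand without that share. The cause of these shifts was not tested.

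Fold changes that turned sign were those of Tcap in AOB-F LV (-0.02 without AOB-F replicate 2 and -0.074 without Sham-LF replicate 3, in a range of -0.074 to 0.24 on leaving out 1 animal), Tcap in AOB-F Spt (0.019 without Sham-LF replicate 2, range -0.22 to 0.019), Ankrd23 in PAB-F LV (-0.0057 without PAB-F replicate 2, range -0.0057 to 0.71), Ankrd1 in AOB-H LV (-0.12 within series 3) and Ankrd23 in PAB-H RV (-0.52 within series 3).

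Replicate numbers are shared by different animals of the banded and sham groups. The lowest correlation of deviations between same-numbered libraries ran from -0.291 to 0.0711 over the comparisons. The median ran from -0.236 in AOB-F RV to 0.365 in AOB-H RV, where the highest single value was 0.762. At the compensated stage, libraries of a chamber with the same number also lie in the same library series. A block of replicate number gave 0 members called in AOB-F LV and 2 genes in all, 1 member in AOB-F Spt (Ankrd23) and 1 in older against young sham LV (Tcap), and changed no other count. The number of all genes called with this block is given for AOB-F LV only. Between Sham-H chambers the same animals pair the libraries, and the block of animal changed no call. Ankrd2, with a median of 13 counts, is limited by depth.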
